A study of Mus musculus with 4 samples.

Results

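Transcripts of 10 chemokine ligands were followed in the mouse hippocampus 24 h after global cerebral ischemia (GCI), among 22609 gene symbols counted in each library. The ligands were given by name: Cx3cl1, Cxcl12 and Cxcl14 as constitutive ligands, and Ccl2, Ccl3, Ccl4, Ccl12, Cxcl1, Cxcl10 and Cxcl16 as inducible ligands. The 3 constitutive ligands made up nearly all ligand counts, and their summed level was nearly equal in the genotypes. The 7 inducible ligands were rare. All 7 had a lower mean in FBN-ARO-KO+GCI than in FLOX+GCI, but none passed the test over all genes, and for Ccl2 and Ccl12 the difference lay almost wholly in 1 FLOX+GCI library.

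Chemokines are small secreted or membrane-bound proteins that bind G protein-coupled receptors and direct the movement of cells along their gradients. Constitutive ligands are made in healthy tissue. In brain these include Cx3cl1 (fractalkine), which neurons display to the microglial receptor Cx3cr1, and Cxcl12, which guides and retains cells through Cxcr4. Inducible ligands are switched on by NF-kB, AP-1 or interferon signaling in activated glia, endothelium and leukocytes. They recruit monocytes (Ccl2, Ccl12), neutrophils (Cxcl1) or T cells (Cxcl10) to injured tissue.

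The comparison asked how loss of estrogen synthesis in forebrain neurons alters these transcripts after ischemia. FBN-ARO-KO mice carry floxed Cyp19a1, the gene for aromatase, together with Cre under the CaMKIIα promoter, so that the deletion is restricted to excitatory neurons of the forebrain. FLOX mice are their controls. All mice of both groups were female, 3 to 5 months old and ovariectomized 1 week before surgery, and all underwent 20 min of common carotid artery occlusion and 24 h of reperfusion. There were 2 FLOX+GCI and 2 FBN-ARO-KO+GCI hippocampus libraries and no library of unoperated tissue was analysed here, so a ligand described as inducible is one by its known regulation, and its level without ischemia was not measured. Neither the labels nor the methods say that the libraries of a group came from separate mice, and p-values measure only the spread between these libraries. In bulk tissue, fewer cells of a type and less RNA per cell cannot be told apart.

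Reads on genes totaled between 24333396 and 33076795 per library, and levels are given as CPM, counts scaled by library size with edgeR's trimmed mean of M-values (TMM). A floor of 3 counts corresponded to between 0.0905 and 0.122 CPM. Replicates differed beyond sampling noise, with a chi-square of 10.5 per degree of freedom in FLOX+GCI and 12.3 in FBN-ARO-KO+GCI. The targeted gene could not check the labels, because Cyp19a1 had only 4, 1, 2 and 2 counts in FLOX+GCI 1 and 2 and FBN-ARO-KO+GCI 1 and 2, the order in which 4 values are listed throughout. Markers of excitatory hippocampal neurons summed to between 7244 and 7560 CPM in each library. Most of this sum was Camk2a, which excitatory neurons elsewhere in the forebrain also express, so it cannot check the hippocampus label. For 2 against 2 libraries the smallest two-sided p of an exact permutation test is 0.333, and genes were therefore tested with edgeR's quasi-likelihood test, which shares its estimate of spread across genes, with Benjamini-Hochberg adjustment. By this test 2 of 14527 genes had an adjusted p under 0.05, which is 0.0138% of those tested, and 2403 had an unadjusted p under 0.05.

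Of the 10 ligands, 5 had enough counts to be tested: Cx3cl1, Cxcl12, Cxcl14, Cxcl16 and Cxcl10. Cxcl10 passed the filter on low counts only through its FLOX+GCI libraries, so its presence among the tested ligands is tied to its difference. None of the 5 passed the adjusted threshold. With an unadjusted p under 0.05, 2 of the 5 were lower in FBN-ARO-KO+GCI (Cxcl10 and Cxcl14), where 7.82% of all tested genes were. Every FBN-ARO-KO+GCI library lay below every FLOX+GCI library for 3 of the 5 (Cxcl10, Cxcl14 and Cxcl16), and this was also so for 25.8% of tested genes. In a fit of all 17821 genes with at least 1 count, 4 of the 10 ligands were lower at an unadjusted p under 0.05 (Ccl2, Ccl12, Cxcl10 and Cxcl14) against 6.9% of genes, and the groups did not overlap for 5 of 10 (Ccl12 and Cxcl1 besides the 3 above) against 24.3%. The 5 ligands below the filter are given from this fit.

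**Figure D1:**
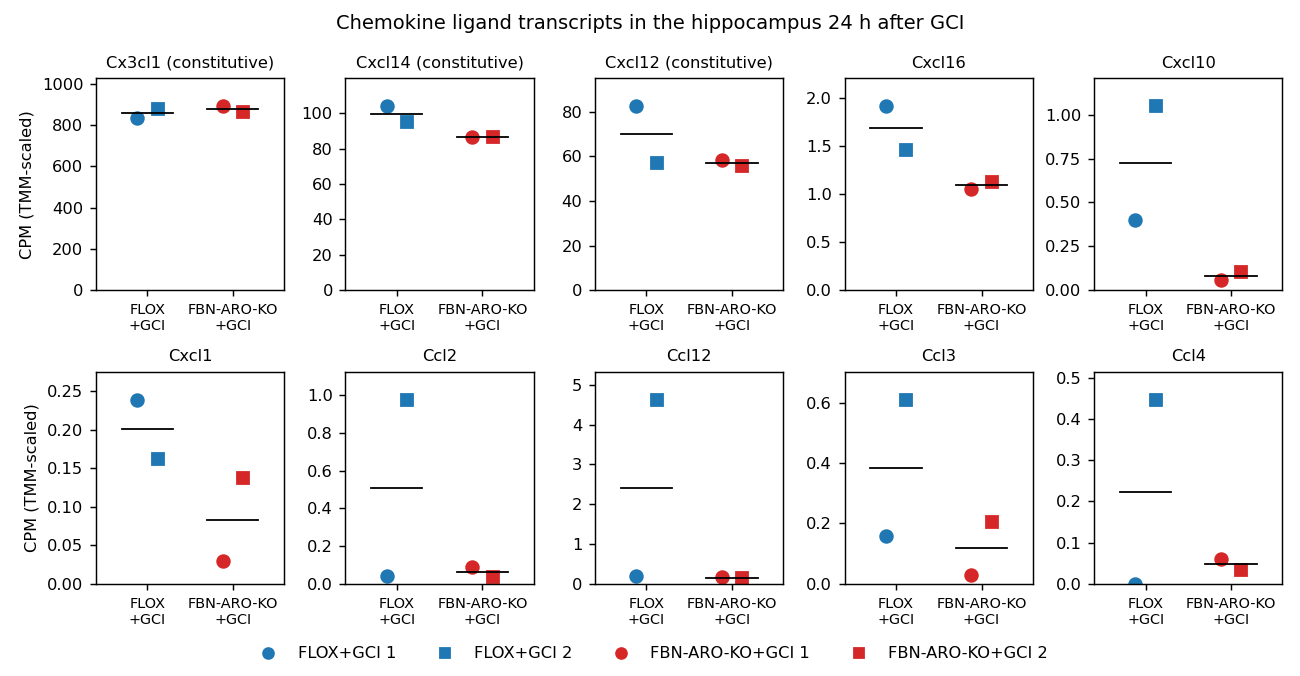
Level of each chemokine ligand (CPM scaled by TMM, linear axes from 0, 1 panel per ligand) in the 2 FLOX+GCI libraries (blue) and the 2 FBN-ARO-KO+GCI libraries (red); horizontal lines are group means. Cx3cl1 lay between 835 and 893 CPM in all 4 libraries, while Ccl12 reached 4.62 CPM in FLOX+GCI 2 and at most 0.2 CPM in the others.

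Cx3cl1, on chr8:97295909-97306323 of mm9 (plus strand), was the most abundant of the 10 ligands. Its FLOX+GCI libraries held 20932 and 21710 counts and its FBN-ARO-KO+GCI libraries 29610 and 25380, which is 835, 881, 893 and 866 CPM. The groups overlapped, and their means were 858 ± 32.1 CPM for FLOX+GCI and 880 ± 19 CPM for FBN-ARO-KO+GCI (SD, n = 2 each). The log2 fold change, written throughout as FBN-ARO-KO+GCI over FLOX+GCI, was 0.04 with a standard error of 0.07 and an edgeR adjusted p of 0.806. Cx3cl1 supplied between 81.5% and 85.9% of the counts of the 10 ligands in each library. Its protein is anchored to the membrane of neurons and shed by the proteases Adam10 and Adam17.

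Cxcl14, on chr13:56390008-56397912 (minus strand), is made in the forebrain by subsets of interneurons. Its FLOX+GCI libraries held 2613 and 2342 counts and its FBN-ARO-KO+GCI libraries 2871 and 2533, or 104, 95, 86.6 and 86.5 CPM. Both FBN-ARO-KO+GCI libraries lay below both FLOX+GCI libraries, with means of 99.6 ± 6.55 CPM and 86.5 ± 0.0984 CPM (SD, n = 2 each). Its log2 fold change was -0.20 (standard error 0.08), with an unadjusted p of 0.0349 and an edgeR adjusted p of 0.274. Cxcl14 is rich in GC (55.6% of its transcript), and over 13869 genes the log2 fold change ran against GC content, with a Spearman rho of -0.55 (a correlation across genes, and genes are no replicates). After GC content and length were removed as a trend in each library, the log2 fold change of Cxcl14 was -0.07. The same correction moved Cx3cl1 (57.1% GC) from 0.04 to 0.18. The summed level of 8 interneuron markers was 1278 and 1246 CPM in FLOX+GCI and 1221 and 1240 CPM in FBN-ARO-KO+GCI. With an unadjusted edgeR p under 0.05, 2 of the 8 were lower in FBN-ARO-KO+GCI, where 7.82% of tested genes were, and 0 were higher. These were Sst (log2 fold change -0.38) and Npy (-0.50), beside a median of 0.03 over the 8. The part of interneurons in the Cxcl14 difference was not tested.

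Cxcl12, on chr6:117118553-117131385 (plus strand), had counts of 2069 and 1411 in FLOX+GCI, against 1941 and 1627 in FBN-ARO-KO+GCI, or 82.6, 57.2, 58.6 and 55.5 CPM. The groups overlapped, and FLOX+GCI 1 stood above the other 3 libraries, which lay close together. This gave a log2 fold change of -0.29 (standard error 0.16, edgeR adjusted p = 0.382), and it changed with the FLOX+GCI library left out. Without FLOX+GCI 1 it was -0.00. Without FLOX+GCI 2 it was -0.54, and Cxcl12 then was the 1 ligand with an adjusted p under 0.05, a fit in which 0.632% of genes were called lower. In each of these fits the lone FLOX+GCI library is assumed to vary like the FBN-ARO-KO+GCI pair. Cxcl12 is made by endothelial, meningeal and neuronal cells, and FLOX+GCI 1 was also highest in the summed level of 5 endothelial markers (187, 129, 144 and 102 CPM) and of 5 markers of meninges and fibroblasts (330, 173, 201 and 116 CPM). Their part in the Cxcl12 difference was not tested.

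The 3 constitutive ligands together came to 1022 and 1033 CPM in FLOX+GCI and 1038 and 1008 CPM in FBN-ARO-KO+GCI, so their sum was nearly level in the 4 libraries. Their median log2 fold change was -0.20, beside -0.02 over every gene with at least 1 count. The 7 inducible ligands came to 2.95 and 9.33 CPM in FLOX+GCI and to 1.51 and 1.78 CPM in FBN-ARO-KO+GCI. They made up 0.288% and 0.895% of ligand counts in the FLOX+GCI libraries, against 0.145% and 0.176% in the FBN-ARO-KO+GCI libraries. All 7 had a log2 fold change below 0, with a median of -2.11 that was -0.64 without FLOX+GCI 2 (over 6 genes, since Ccl4 then had too few counts), and for 5 of the 7 the highest library was FLOX+GCI 2.

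**Figure D2:**
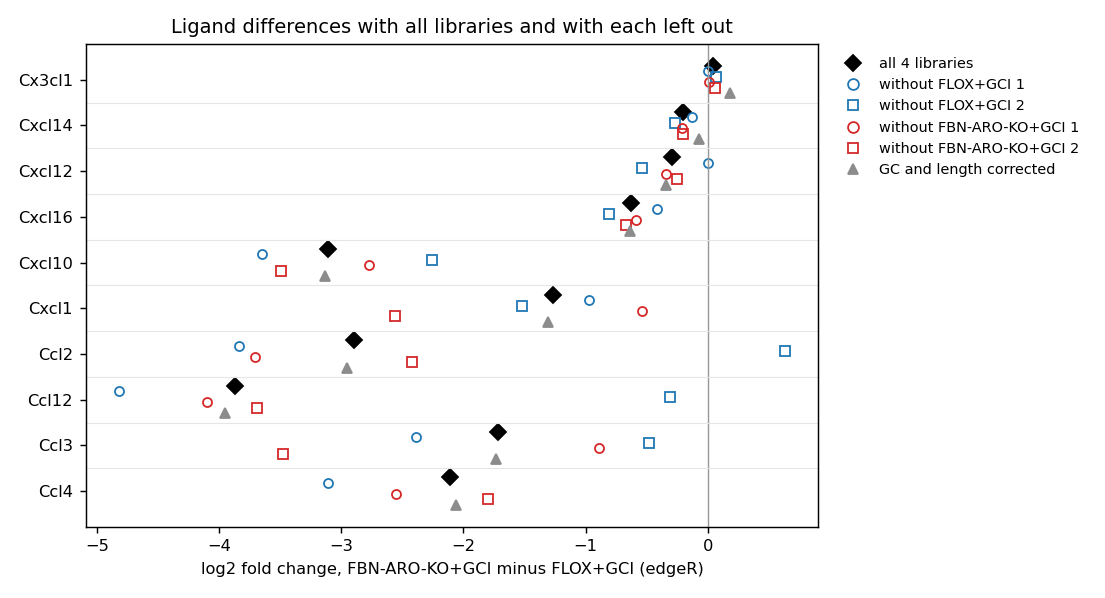
Log2 fold change of each ligand, FBN-ARO-KO+GCI minus FLOX+GCI, from edgeR with all 4 libraries (diamond), with each library left out (open symbols) and after correction for GC content and length (triangle); Cxcl1, Ccl2, Ccl12, Ccl3 and Ccl4 are from the fit of every gene. Ccl4 has no value without FLOX+GCI 2, where both groups are at or under 3 counts. Without FLOX+GCI 2, Ccl2 moved from -2.90 to 0.63 and Ccl12 from -3.87 to -0.31, while Cxcl10 was at -2.26.

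Ccl2 and Ccl12 both attract monocytes through Ccr2, and their genes lie close together on chromosome 11 of mm9, Ccl2 at chr11:81849073-81850955 and Ccl12 at chr11:81915347-81916902, both on the plus strand. Ccl12 had counts of 5 and 114 in FLOX+GCI, against 6 and 4 in FBN-ARO-KO+GCI. Ccl2 had counts of 1 and 24 in FLOX+GCI, against 3 and 1 in FBN-ARO-KO+GCI. In both cases FLOX+GCI 2 stood far above the other 3 libraries, which were near the floor: its CPM was 23.2 times that of FLOX+GCI 1 for Ccl12 and 24.4 times for Ccl2. The groups overlapped for Ccl2, and for Ccl12 they were apart only by 0.2 CPM in FLOX+GCI 1 against 0.181 CPM in FBN-ARO-KO+GCI 1. The log2 fold change of Ccl12 was -3.87 (standard error 1.17), with an unadjusted p of 0.00961 and an edgeR adjusted p of 0.226. That of Ccl2 was -2.90 (standard error 1.25), with an unadjusted p of 0.0471 and an edgeR adjusted p of 0.33. In pooled counts scaled by library size, FLOX+GCI exceeded FBN-ARO-KO+GCI 14.9 times for Ccl12 (95% interval 7.85 to 32) and 7.85 times for Ccl2 (2.71 to 31). Without FLOX+GCI 2 these ratios were 1.25 (0.334 to 4) and 0.623 (0.0126 to 6.3). The intervals cover counting error only and leave out the spread between libraries. Reads without molecular identifiers are not independent molecules, so even the counting error may be understated.

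Ccl3 and Ccl4, macrophage inflammatory proteins made by activated microglia and macrophages, are neighbors on chromosome 11 as well, at chr11:83461346-83462857 (minus strand) and chr11:83476086-83478185 (plus strand). Ccl3 had counts of 4 and 15 in FLOX+GCI, against 1 and 6 in FBN-ARO-KO+GCI. Ccl4 had counts of 0 and 11 in FLOX+GCI, against 2 and 1 in FBN-ARO-KO+GCI. For both genes FLOX+GCI 2 was again the highest library and FLOX+GCI 1 lay within or below the range of FBN-ARO-KO+GCI, so the groups overlapped. The log2 fold change of Ccl3 was -1.72 (standard error 0.96, edgeR adjusted p = 0.444), and the scaled count ratio of FLOX+GCI to FBN-ARO-KO+GCI was 3.41 (95% interval 1.37 to 9.6), or 1.42 (0.306 to 5.6) without FLOX+GCI 2. The log2 fold change of Ccl4 was -2.11 (standard error 1.42, edgeR adjusted p = 0.525), with a ratio of 4.61 (1.22 to 25.7) and too few counts for any ratio without FLOX+GCI 2. Taken as a sum, the 4 CC ligands had counts of 10 and 164 in FLOX+GCI, against 12 and 12 in FBN-ARO-KO+GCI, or 0.399, 6.65, 0.362 and 0.41 CPM. FLOX+GCI 1 was thus level with both FBN-ARO-KO+GCI libraries.

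Cxcl10 was also highest in FLOX+GCI 2, but FLOX+GCI 1 too lay well above both FBN-ARO-KO+GCI libraries. This interferon-inducible ligand of Cxcr3, on chr5:92775664-92777915 (minus strand), had counts of 10 and 26 in FLOX+GCI, against 2 and 3 in FBN-ARO-KO+GCI, or 0.399, 1.05, 0.0603 and 0.102 CPM. The means were 0.727 ± 0.464 CPM and 0.0814 ± 0.0298 CPM (SD, n = 2 each). Its log2 fold change of -3.11 had a standard error of 0.75, with an unadjusted p of 0.00388 and an edgeR adjusted p of 0.238. The scaled count ratio of FLOX+GCI to FBN-ARO-KO+GCI was 9.04 (95% interval 3.54 to 29.5), and 4.98 (1.55 to 18.6) without FLOX+GCI 2. Cxcl10 overlaps Art3 on the opposite strand over 8.8% of its exon length. Whether the counting used strand is not stated. Art3 had 65, 94, 79 and 66 counts in the 4 libraries, and its part in the Cxcl10 counts was not tested.

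The sequence upstream of Cxcl10 is shown beside those of Cxcl1 and Ccl12, other inducible ligands, and of the constitutive Cx3cl1, because these 4 genes span the ligands from the lowest to the highest mean level per length. Each is the 250 bases before the annotated start, 5′ to 3′ on the gene's strand, from RefSeq on GRCm38.p6, a later build than the mm9 of the counts. Sequence was matched for 7 of the 10 ligands, all but Ccl2, Ccl4 and Cxcl16. Capitals mark matches, on either strand, to an NF-kB motif (GGGANNTNCC), an interferon response element (GAAANNGAAA), an AP-1 motif (TGANTCA) or a TATA box (TATAAA). The windows are Cxcl10 at chr5:92348890-92349139 (minus strand), Cxcl1 at chr5:90890995-90891244 (plus), Ccl12 at chr11:82101595-82101844 (plus) and Cx3cl1 at chr8:94771930-94772179 (plus).
Cxcl10: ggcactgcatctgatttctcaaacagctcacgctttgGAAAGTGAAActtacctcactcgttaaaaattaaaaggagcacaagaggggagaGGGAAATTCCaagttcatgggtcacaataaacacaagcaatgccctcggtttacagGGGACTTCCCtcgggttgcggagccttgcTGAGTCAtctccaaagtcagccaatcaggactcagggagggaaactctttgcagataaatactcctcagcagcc
Cxcl1: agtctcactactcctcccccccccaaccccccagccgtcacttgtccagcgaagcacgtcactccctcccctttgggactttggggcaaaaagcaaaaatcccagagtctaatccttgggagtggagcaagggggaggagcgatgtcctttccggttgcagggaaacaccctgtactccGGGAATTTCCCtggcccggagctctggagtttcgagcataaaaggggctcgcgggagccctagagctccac
Ccl12: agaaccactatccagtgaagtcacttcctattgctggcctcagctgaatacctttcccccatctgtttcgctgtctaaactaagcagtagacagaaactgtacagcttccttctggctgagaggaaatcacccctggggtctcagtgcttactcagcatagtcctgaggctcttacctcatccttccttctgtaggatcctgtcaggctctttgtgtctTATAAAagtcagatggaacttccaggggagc
Cx3cl1: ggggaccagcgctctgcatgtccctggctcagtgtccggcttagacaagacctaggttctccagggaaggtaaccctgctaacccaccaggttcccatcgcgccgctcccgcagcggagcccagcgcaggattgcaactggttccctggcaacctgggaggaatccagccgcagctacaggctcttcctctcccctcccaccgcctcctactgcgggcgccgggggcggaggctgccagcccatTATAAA

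Cxcl10 held an interferon response element 213 to 204 bases before its start, NF-kB matches at 159 to 150 and at 103 to 94 bases, and an AP-1 match at 74 to 68 bases. Cxcl1 held an NF-kB match at 71 to 62 bases and a second on the other strand at 70 to 61, which overlap and appear as 1 run of capitals. Ccl12 held only a TATA box, at 31 to 26 bases, and Cx3cl1 only a TATA box, at 6 to 1 bases, directly before its annotated start. Of the 3 matched ligands not printed, Cxcl14 held an interferon response element at 172 to 163 bases, and Ccl3 and Cxcl12 held none of the 4 motifs. Among 32851 promoters of the same length, 3.33% held the NF-kB motif, 2.98% the interferon response element, 6.75% the AP-1 motif and 12.4% the TATA box. A match describes letters in the window and not a bound site, and a window without one says nothing of the factor.

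Cxcl1, a neutrophil attractant on chr5:91320267-91322141 (plus strand), had the lowest mean level per length. Its FLOX+GCI libraries held 6 and 4 counts and its FBN-ARO-KO+GCI libraries 1 and 4, or 0.239, 0.162, 0.0302 and 0.137 CPM. The groups did not overlap in CPM, but FLOX+GCI 2 and FBN-ARO-KO+GCI 2 were nearly equal at 4 counts each. For Cxcl1 the log2 fold change was -1.27 (standard error 0.96, edgeR adjusted p = 0.571), and the ratio of FLOX+GCI to FBN-ARO-KO+GCI was 2.51 with a 95% interval of 0.782 to 9.37. Unlike the CC ligands, Cxcl1 was not higher in FLOX+GCI 2, whose CPM was 0.678 times that of FLOX+GCI 1.

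Cxcl16, a membrane-bound ligand of Cxcr6 on chr11:70267485-70273486 (minus strand), was the inducible ligand with the steadiest counts. Its FLOX+GCI libraries held 48 and 36 counts and its FBN-ARO-KO+GCI libraries 35 and 33, or 1.92, 1.46, 1.06 and 1.13 CPM. Both FLOX+GCI libraries were above both FBN-ARO-KO+GCI libraries, with means of 1.69 ± 0.322 CPM and 1.09 ± 0.05 CPM (SD, n = 2 each). Between the groups the log2 fold change was -0.63 (standard error 0.31), with an unadjusted p of 0.0774 and an edgeR adjusted p of 0.345. Leaving out 1 library at a time gave log2 fold changes between -0.81 and -0.42. Of its exon length, 18.3% overlaps Zmynd15 on the opposite strand, which had 4, 6, 3 and 1 counts.

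Per kilobase of exon, Cx3cl1 had a mean level of 234 CPM per kb over the 4 libraries (225 to 241) and Cxcl14 of 51.1 CPM per kb (47.4 to 57.2), and neither range overlapped the next. Cxcl12 followed at 7.76 CPM per kb (6.79 to 10.1). Ccl12 came next by its mean of 2.39 CPM per kb, but with a range of 0.254 to 8.61 it overlapped both neighbors. Cxcl16 (0.46), Ccl3 (0.327), Cxcl10 (0.266), Ccl2 (0.25), Ccl4 (0.205) and Cxcl1 (0.149 CPM per kb) followed, and each overlapped the next, so their order is not resolved by these libraries.

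**Figure D3:**
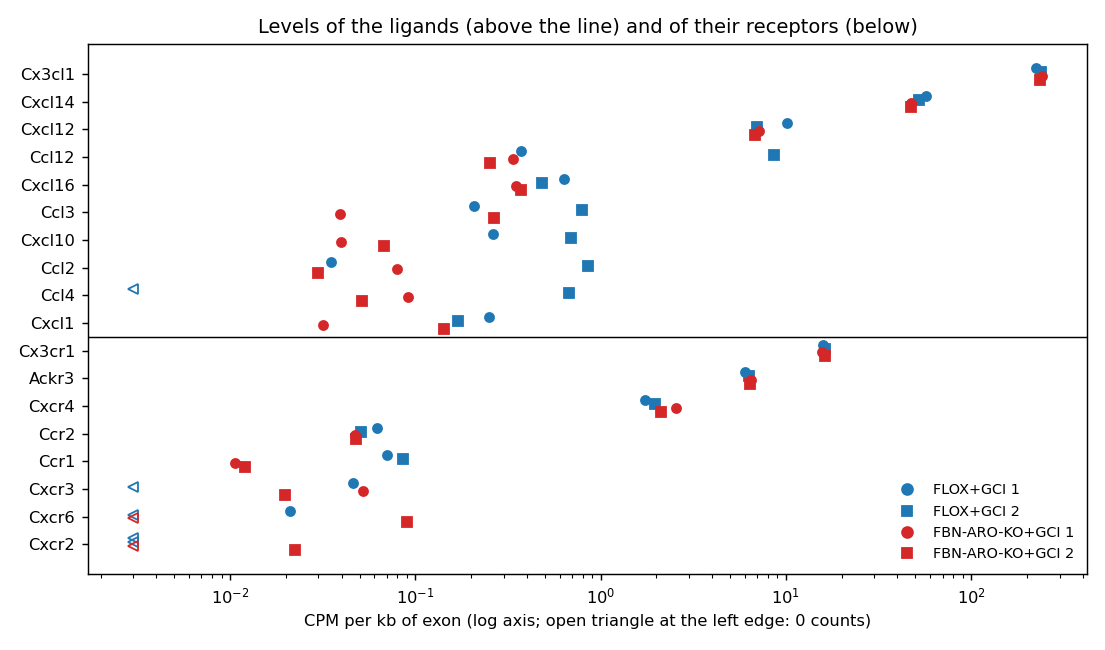
Level of the 10 ligands (above the line) and of 8 receptors that bind them (below) in each of the 4 libraries, in CPM per kb of exon on a log axis; open triangles at the left edge are libraries with 0 counts. Cx3cl1 lay at 225 to 241 CPM per kb and its receptor Cx3cr1 at 15.7 to 16.2, while Ccl12 ran from 0.254 to 8.61.

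The receptors showed the same split between abundant and rare. Cx3cr1, the microglial receptor of Cx3cl1, was the most abundant at a mean of 16 CPM per kb, followed by Ackr3 (Cxcr7 in the files), the scavenger receptor of Cxcl12 (6.29), and by Cxcr4, its signaling receptor (2.1 CPM per kb). Cx3cr1 had counts of 1475 and 1486 in FLOX+GCI, against 1946 and 1765 in FBN-ARO-KO+GCI, at 58.9, 60.3, 58.7 and 60.3 CPM. The libraries were nearly level, as were those of its ligand, and the log2 fold change was -0.00 (standard error 0.08, edgeR adjusted p = 0.99).

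Ackr3 had counts of 504 and 520 in FLOX+GCI, against 715 and 628 in FBN-ARO-KO+GCI, and its log2 fold change was 0.06 with a standard error of 0.10. Cxcr4 had 79, 88, 153 and 112 counts, with a log2 fold change of 0.33 (standard error 0.21, edgeR adjusted p = 0.442). Both Cxcl12 receptors thus had slightly higher levels in both FBN-ARO-KO+GCI libraries, as did 25.9% of tested genes, and neither passed the test. Of the 8 receptors 3 were tested, and none had an unadjusted p under 0.05.

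The receptors of the monocyte, neutrophil and T cell attractants were near the floor. Ccr2, which binds Ccl2 and Ccl12, had counts of 10 and 8 in FLOX+GCI, against 10 and 9 in FBN-ARO-KO+GCI. Cxcr2, which binds Cxcl1, had 0, 0, 0 and 2 counts. Cxcr3, which binds Cxcl10, had 2, 0, 3 and 1 counts. Cxcr6, which binds Cxcl16 and overlaps Fyco1 on the opposite strand, had 1, 0, 0 and 5 counts. Ccr1, a receptor of Ccl3, had counts of 5 and 6 in FLOX+GCI, against 1 and 1 in FBN-ARO-KO+GCI, a ratio of 6.91 with a 95% interval of 1.51 to 64.1. That interval covers counting error only and not the spread between libraries. Both FLOX+GCI libraries lay above both FBN-ARO-KO+GCI libraries, as for 24.3% of genes with at least 1 count. The edgeR adjusted p of Ccr1 was 0.29 in the fit of every gene. Markers of blood leukocytes, which carry these receptors, summed over 8 genes to 1.56 and 1.87 CPM in FLOX+GCI and 1.66 and 2.08 CPM in FBN-ARO-KO+GCI. The neutrophil genes S100a8 and S100a9 together held 7, 7, 8 and 31 of these counts, and the other 6 markers summed to 1.28, 1.58, 1.42 and 1.02 CPM, with the highest value in FLOX+GCI 2. The part of leukocytes in the ligand levels was not tested.

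The rest of the ligand family, 30 genes, had 12 members without a count in any library and 5 that could be tested, none of which had an unadjusted p under 0.05. Ccl25, a thymic and gut ligand, had counts of 94 and 157 in FLOX+GCI, against 130 and 112 in FBN-ARO-KO+GCI. Ccl27a had 317, 237, 412 and 328 counts, but it has near-identical copies and overlaps Il11ra1 on the opposite strand, so its counts are uncertain. The myeloid ligands Ccl6 (36, 21, 36 and 33 counts) and Ccl9 (14, 21, 33 and 28) and the Ccr4 ligand Ccl17 (7, 11, 7 and 10) were low in every library. Pf4, a platelet and macrophage ligand, had 27, 8, 18 and 4 counts, lower in the second library of each group. Of 14 other chemokine receptors 3 were tested, again none at an unadjusted p under 0.05: the atypical receptors Ackr1 (Darc in the files; 1036, 1041, 1372 and 1232 counts) and Ackr2 (54, 56, 57 and 51), and Ccrl2 (27, 21, 32 and 16).

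All 5 proteases that shed or trim the ligands were tested, and 1 was higher in FBN-ARO-KO+GCI at an unadjusted p under 0.05, against 8.72% of tested genes. This was Adam10, a sheddase of Cx3cl1 and Cxcl16, with 2625 and 2293 counts in FLOX+GCI, against 3621 and 3791 in FBN-ARO-KO+GCI (105, 93, 109 and 129 CPM). Both FBN-ARO-KO+GCI libraries were above both FLOX+GCI libraries, as for 25.9% of tested genes. The log2 fold change of Adam10 was 0.27 (standard error 0.10, edgeR adjusted p = 0.274). After the GC and length correction it was 0.08, and then 0 proteases were higher and 1 was lower at an unadjusted p under 0.05, beside the 4.32% of tested genes that were lower. That 1 was Dpp4, which trims Cxcl10 and Cxcl12 and had 50, 35, 36 and 37 counts with a log2 fold change of -0.54 (standard error 0.32) before correction and -0.74 after it. Mmp9 had 28, 33, 63 and 35 counts with a log2 fold change of 0.34 (standard error 0.34).

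Among 19 transcription factors and inhibitors of the NF-kB, interferon, AP-1 and C/EBP pathways, which act upstream of the inducible ligands, all were tested and none passed the adjusted threshold. With an unadjusted p under 0.05, 6 of the 19 were lower in FBN-ARO-KO+GCI (Relb, Irf7, Jun, Fos, Cebpb and Cebpd), where 7.82% of tested genes were, and 0 were higher. After the GC and length correction 4 of the 19 were (Cebpd, Fos, Jun and Irf7), beside 4.32% of genes, and Cebpb moved from -0.60 to -0.22. Cebpd had no GC value and was left uncorrected. Irf7 and Cebpb overlap Phrf1 and Tmem189 on the opposite strand, so their counts are uncertain. Before correction the median log2 fold change of the 19 was -0.22 beside -0.01 over all tested genes. The smallest p were those of Cebpd, Fos and Jun. Cebpd, a factor of the acute inflammatory response, had counts of 199 and 233 in FLOX+GCI, against 175 and 144 in FBN-ARO-KO+GCI, with a log2 fold change of -0.77 (standard error 0.17, edgeR adjusted p = 0.238). Fos and Jun, the AP-1 subunits, had log2 fold changes of -0.71 (standard error 0.17) and -0.24 (standard error 0.07). For these 3 factors, picked by their small p, both FLOX+GCI libraries were above both FBN-ARO-KO+GCI libraries, as for 25.8% of tested genes. For Fos the higher FLOX+GCI library was replicate 1, with 716 counts against 529.

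Of 8 cytokines that induce chemokines 3 were tested. Lif, an interleukin-6 family cytokine, had counts of 40 and 521 in FLOX+GCI, against 35 and 39 in FBN-ARO-KO+GCI, or 1.6, 21.1, 1.06 and 1.33 CPM. As with Ccl12, FLOX+GCI 2 alone was high, and the log2 fold change of -3.25 (standard error 1.00) had an edgeR adjusted p of 0.245. Il1b had 11, 26, 8 and 11 counts (log2 fold change -1.27, standard error 0.57), and Il1a had 16, 34, 17 and 33 counts (log2 fold change -0.31, standard error 0.53). Of the untested cytokines, Tnf, Osm and Il6 are named after their values were seen. Tnf had counts of 0 and 14 in FLOX+GCI, against 0 and 1 in FBN-ARO-KO+GCI, and Osm had 7 and 9 against 0 and 1. Il6 did not differ in this way, with 1, 2, 2 and 1 counts. The interferon genes Ifng and Ifnb1 had no count in any library.

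**Figure D4:**
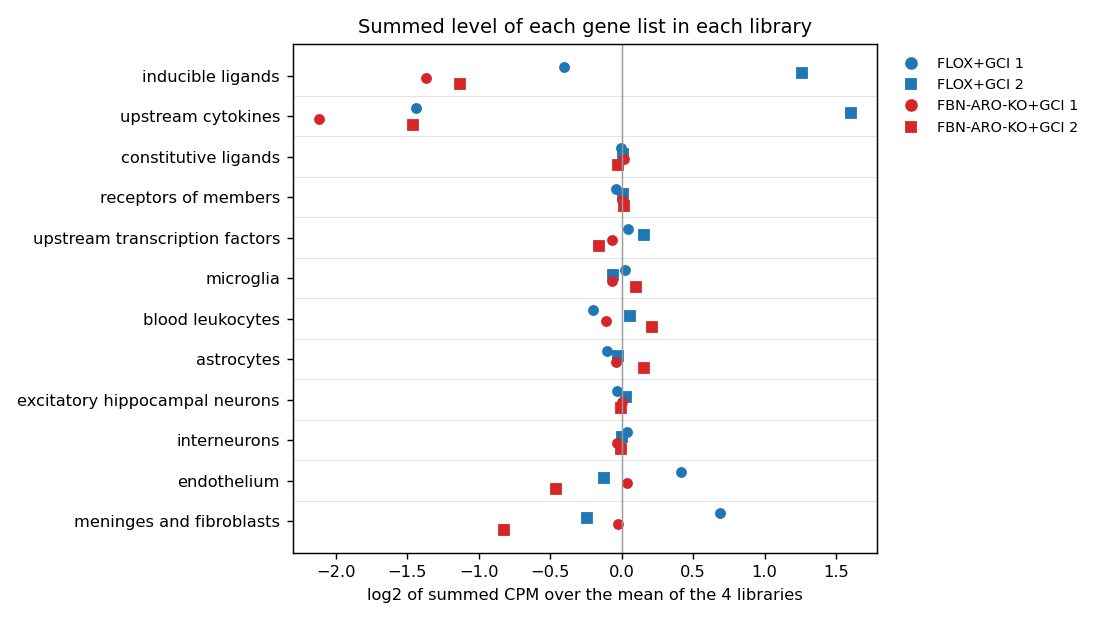
Summed level of each gene list in each library, as log2 of its summed CPM over the mean of the 4 libraries, for the ligands, their receptors, upstream genes and cell type markers. Inducible ligands (2.95, 9.33, 1.51 and 1.78 CPM) and upstream cytokines (2.99, 24.6, 1.87 and 2.94 CPM) were highest in FLOX+GCI 2, while microglia markers stayed between 420 and 473 CPM.

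The library FLOX+GCI 2, in which Ccl2, Ccl3, Ccl4, Ccl12, Cxcl10, Lif and Tnf were highest, was set beside the markers of cells that can make them. Microglia markers, summed over 8 genes, came to 448 and 423 CPM in FLOX+GCI and 420 and 473 CPM in FBN-ARO-KO+GCI, with the highest value in FBN-ARO-KO+GCI 2. The sum of 6 astrocyte markers was 4732, 4986, 4934 and 5658 CPM, but Gfap, the filament protein of reactive astrocytes, was 396 and 900 CPM in FLOX+GCI and 502 and 560 CPM in FBN-ARO-KO+GCI. Gfap was thus highest in the same library as the CC ligands, as was Aldh1l1, while Slc1a2, Slc1a3 and Gja1 were lowest there and Aqp4 was highest in FBN-ARO-KO+GCI 2. The part of astrocytes in the ligand levels was not tested. Choroid plexus markers summed to between 42.4 and 63.3 CPM with the highest value in FLOX+GCI 1. Of 5 red blood cell genes 4 had no count, and Alas2 had 104, 76, 61 and 67 counts. The 4 are hemoglobin genes with near-identical copies, and reads without a unique alignment were not counted. Their lack of counts therefore does not measure blood in the tissue. Without FLOX+GCI 1, a fit that compares FLOX+GCI 2 alone with the FBN-ARO-KO+GCI pair, Ccl2, Ccl12 and Cxcl10 had an adjusted p under 0.05, where 0.946% of genes were called lower. Ccl2, Ccl12 and Cxcl10 entered that fit only through their counts in FLOX+GCI 2. Their calls thus restate their level in that library and are no separate evidence.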

How the data were processed

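Per the labels, 50 nt single-end reads of total RNA were aligned by the authors to mm9 with TopHat2 2.0.8b and counted with HTSeq, and the authors deposited raw counts per gene symbol, with no normalization. The strand setting and annotation release are not given in the sources used here. Reads on no feature were between 12.3% and 13.7% of those on genes, on several genes or on none, and these and the other unassigned counters were left out.

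Groups and replicate numbers came from the sample titles. From the counts, FBN-ARO-KO+GCI was compared with FLOX+GCI with edgeR 4.0.16 (quasi-likelihood test, R 4.3.3), using TMM scaling, filterByExpr (minimum count 10) and Benjamini-Hochberg adjustment over all genes. Ligands below the filter were read from a second fit that kept all genes having a count. The standard error was taken from the F statistic. Ratios of summed counts have exact conditional binomial intervals at 95%, scaled by effective library size. These intervals leave out the spread between libraries wherever they are given. The procedure was checked on simulated counts. Positions, exon lengths and GC content came from GENCODE M1 on NCBIM37, the same build as mm9, in which 21430 of the symbols had a single locus, and promoters came from RefSeq on GRCm38.p6.

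The ligands and all gene lists were chosen with earlier results of these data known, so their counts are descriptions. Named were every ligand, 8 of their receptors, other ligands with at least 10 counts in a library, and from the lists of other receptors, proteases, transcription factors and cytokines the genes with an adjusted p under 0.05 or otherwise the 3 with the smallest p. Tnf, Osm, Il6 and single cell type markers, which otherwise entered as sums, were named after their values were seen. A further receptor and a further marker gene are not reported here. Alternatives were DESeq2 1.42.0, scaling by DESeq-style size factors or by library totals, no filter on low counts, the likelihood ratio test of edgeR, a block on the replicate number, a correction for GC content and length (natural splines with 5 degrees of freedom as an offset) with and without that block, and leaving out each library.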

Additional observations from a re-analysis of the deposited data

How the results depend on the processing

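Of 114 values of single ligands under the alternatives, all refits of the same libraries, 113 kept the sign of their log2 fold change. These include values of about 0, such as -0.00 for Cxcl12 without FLOX+GCI 1, which show no direction. The exception in sign was Ccl2, whose log2 fold change ran from -3.84 to 0.63 as libraries were left out in turn. Other scalings (DESeq-style size factors, library totals) changed no direction of a ligand and no count of ligands called. Against 2 genes with an adjusted p under 0.05, 294 had one with the likelihood ratio test, 292 with DESeq2, 5 with every gene tested, 184 with the replicate block, 37 with the replicate block and GC and length correction, and 0 to 193 with a library left out (193 without FLOX+GCI 1, 127 without FLOX+GCI 2, 0 without either FBN-ARO-KO+GCI library). Ligands called among those past the filter, 0 at first, were 1 with the likelihood ratio test (Cxcl10), 1 with the replicate block (Cxcl10) and 0 to 3 with a library left out (3 without FLOX+GCI 1, 1 without FLOX+GCI 2). Ccl12, below the filter and so not in these counts, also passed in the fit of every gene with the replicate block (log2 fold change -3.45, edgeR adjusted p = 0.00223), alone or with the GC and length correction (-3.59, adjusted p = 0.000124). The replicate numbers did not pair the libraries by their labels, and the deviations of same-numbered libraries correlated at 0.129. Ligands at an unadjusted p under 0.05, 2 at first, were 4 in the fit of every gene and 1 to 4 with a library left out (4 without FLOX+GCI 1, 1 without either FBN-ARO-KO+GCI library). The median log2 fold change of the constitutive ligands, -0.20, was -0.07 with the GC and length correction, with or without the replicate block, and -0.27 to -0.01 with a library left out, the last without FLOX+GCI 1. That of the inducible ligands, -2.11, was -3.11 to -0.64 with a library left out, the last without FLOX+GCI 2 and over 6 genes, since Ccl4 then had too few counts. DESeq2 gave no adjusted p to the ligands other than Cx3cl1, Cxcl12 and Cxcl14. Depth limits Ccl2, Ccl3, Ccl4, Ccl12 and Cxcl1, which had fewer than 10 counts in at least 3 libraries. The causes of these changes were not tested.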
